A study of Mus musculus with 6 samples.

Results

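The type I interferon response genes were followed as a set of 40 listed mouse genes: the interferon receptor chains, the factors that carry their signal, sensors of viral RNA and DNA, and antiviral effectors. They were found on the arrays through the transcript accession of each probe. A usable probe was found for 37 of the 40 genes, among 22815 genes with a named probe. Of these 37, 36 were bright enough to be tested, among 14701 genes tested in all. Ifitm2, Mx1 and Mx2 matched no usable probe and were not analysed here.

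Type I interferons are cytokines that many cells release when pattern receptors sense infection. Lipopolysaccharide (LPS) of bacteria reaches this pathway through Toll-like receptor 4, its adaptor TRIF and the transcription factor IRF3. The released interferon binds a receptor of the chains Ifnar1 and Ifnar2, the kinases Jak1 and Tyk2 are activated, and Stat2 and Irf9 take part in a factor that binds interferon-stimulated response elements in the promoters of target genes.

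The hearts came from male C57BL6 mice aged 10 weeks. Every mouse was starved for 16 h and received LPS at 20 mg/kg into the peritoneum, so no heart without LPS is compared. The control group of 3 mice received saline at 3 and 24 h after LPS, and the other group of 3 mice received rhTM, which is recombinant human thrombomodulin, the receptor on vessel walls that turns thrombin toward protein C activation. Hearts were taken at 30 h, and the question was how rhTM, given once endotoxemia had begun, altered heart transcripts. The labels number the mice 1 to 3 in each group, and saline 1 below means the heart of saline mouse 1.

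RNA of each heart was labelled with Cy3 and hybridised to 1 array of a 1-colour Agilent design. Without controls an array carried 59305 spots, and between 54.8% and 62.8% of them were well above background. Precision is limited by having 3 arrays a group. All 8 cardiomyocyte markers were well above background on every array. Saline 1 and 2 lay on slide 1, and saline 3 with the 3 rhTM hearts on slide 2, scanned separately. Each difference was therefore also computed with slide as a blocking term (the slide block), which equals the rhTM mean minus saline 3 and rests on that 1 saline heart. A level is the log2 signal of a gene's probe minus the 75th percentile of its array, so levels compare hearts for 1 gene and not genes with each other. A difference is the mean of rhTM minus the mean of saline on that log2 scale, ± its standard error in limma (n = 3 and 3), and a gene was called changed at a Benjamini-Hochberg adjusted p under 0.05 over all genes tested.

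The promoters below are shown because they place the genes that respond to interferon beside those whose levels are described. In RefSeq's mouse promoter table (GRCm38.p6, 250 bases before to 50 after each start), 31 of the 40 genes had an entry. The letters GAAA, any 2 bases and again GAAA, a core found in interferon-stimulated response elements, were searched on both strands. They occurred in 17 of the 31 genes (54.8%), against 3.76% of the 11647 tested genes that had an entry. Capitals mark the match, which reads TTTC, 2 bases and TTTC where it lies on the strand opposite the gene, and overlapping matches run together.

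Isg15: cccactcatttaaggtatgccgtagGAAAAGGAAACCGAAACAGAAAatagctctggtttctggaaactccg
Oas1a: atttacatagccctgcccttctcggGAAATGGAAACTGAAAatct
Oas1g: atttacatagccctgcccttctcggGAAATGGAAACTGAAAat
Bst2: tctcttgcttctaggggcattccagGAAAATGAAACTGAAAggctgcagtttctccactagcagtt
Stat2: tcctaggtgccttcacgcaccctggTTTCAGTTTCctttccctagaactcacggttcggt
Rsad2: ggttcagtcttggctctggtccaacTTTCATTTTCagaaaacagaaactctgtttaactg
Ifit1: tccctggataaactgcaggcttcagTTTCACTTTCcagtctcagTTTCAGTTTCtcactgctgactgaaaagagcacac
Ifit3: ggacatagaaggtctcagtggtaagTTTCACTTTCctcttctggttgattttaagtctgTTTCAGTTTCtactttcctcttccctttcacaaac
Ddx60: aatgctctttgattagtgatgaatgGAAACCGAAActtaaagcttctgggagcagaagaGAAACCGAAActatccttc

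Each stretch is written on the strand of its gene. Isg15 is at chr4:156200850-156200921 on the minus strand, and Bst2 at chr8:71537562-71537627 on the minus strand. The 2 neighbouring Oas1 genes lie on the minus strand of chromosome 5, Oas1a at chr5:120907526-120907570 and Oas1g at chr5:120887614-120887656, and their printed stretches were identical over 43 of 43 shared bases. On the plus strand, Stat2 is at chr10:128270251-128270310, Ddx60 at chr8:61928009-61928086, Ifit1 at chr19:34640760-34640838 and Ifit3 at chr19:34583348-34583441. Rsad2 is at chr12:26456538-26456597 on the minus strand. The stretch of Ifit3b (chr19:34607744-34607837, plus strand) was identical to that of Ifit3 over 94 of 94 bases, and as these genes are close copies their probes may not separate them. In Ddx58, Ifih1, Ifitm3 and Eif2ak2 the letters occurred only after the start. A match describes the letters in the window and is not a measured binding site.

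**Figure D1:**
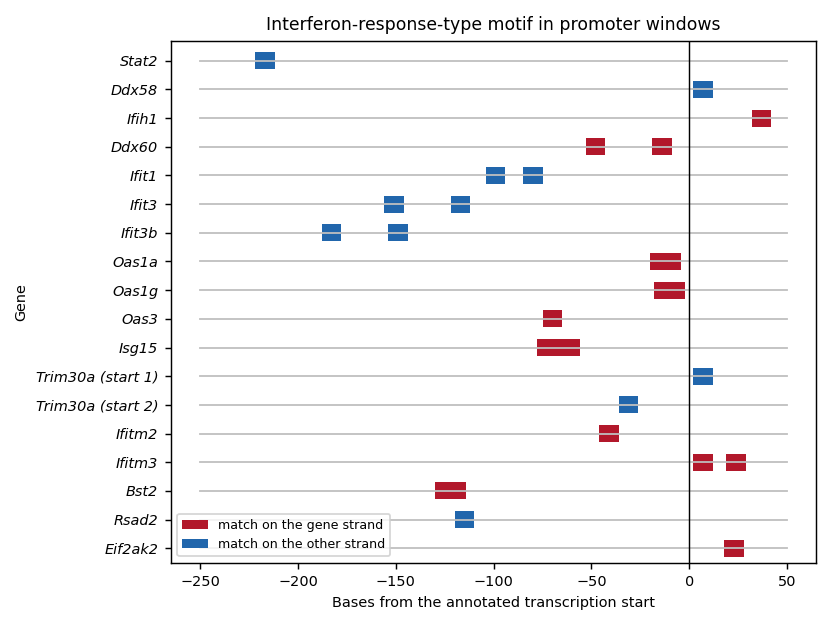
Positions of GAAA, any 2 bases and GAAA in the promoter windows of the genes that hold them, in bases from the annotated transcription start (0). Red boxes are matches on the strand of the gene and blue boxes on the other strand; the matches lie from far upstream in Stat2 to after the start in Ddx58, Ifih1, Ifitm3 and Eif2ak2.

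Most interferon response genes had lower levels in the rhTM hearts, but only 1 passed the test. The difference was below 0 for 31 of the 36 genes tested, and for 49.2% of all genes tested. Its median was -0.49 over the 36 genes, with a range of -1.83 to 0.94, against 0.01 over all genes. Ddx58 was called lower and no gene was called higher (limma), while 2.41% of all genes tested were called lower and 2.75% higher. At an unadjusted p under 0.05, 15 of the 36 genes were lower and 1 was higher, against 15.6% and 15.1% of all genes. All 3 rhTM hearts lay below all 3 saline hearts for 15 genes (18.7% of all genes) and above them for 2 (17%), and the groups overlapped for the other 19. In the slide block the median difference was -0.42, 26 of the 36 genes were below 0, and 0 were called by limma, while 1.95% of all genes were called lower and 3.83% higher. At an unadjusted p under 0.05 that fit had 4 of the 36 genes lower and 2 higher, against 14.5% and 16.3% of all genes. In tissue RNA, fewer cells of a type and less RNA per cell cannot be told apart.

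**Figure D2:**
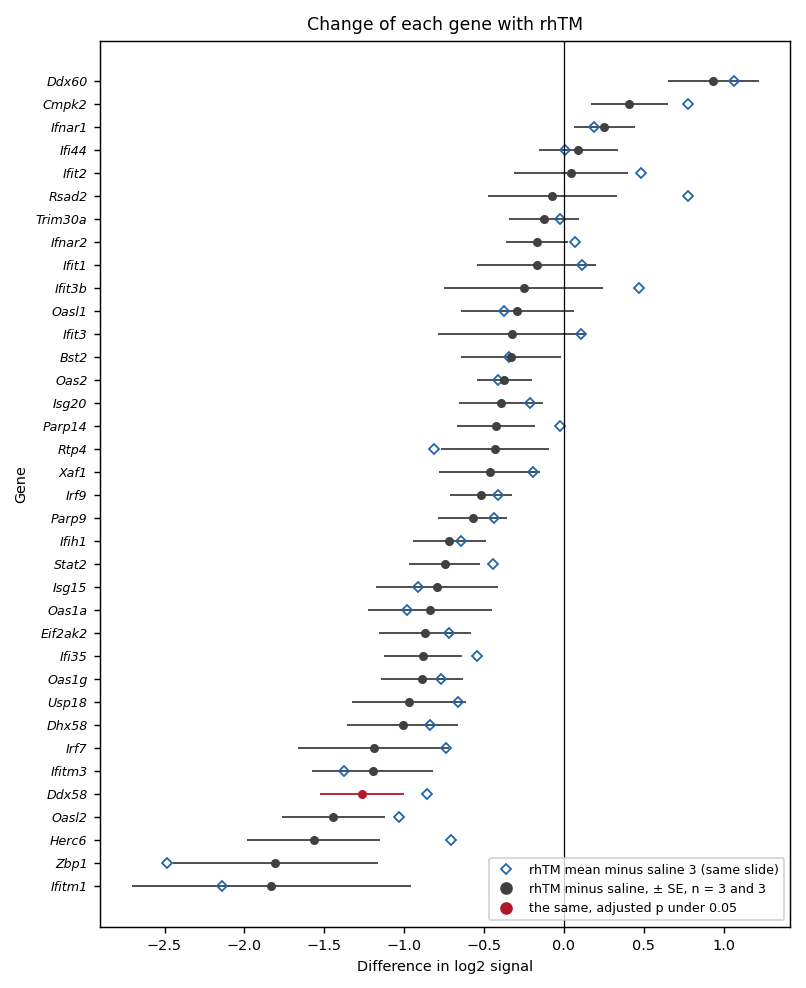
Difference of rhTM minus saline in log2 signal for the 36 interferon response genes tested, ordered by size. Filled points are the mean difference with its standard error (n = 3 and 3), red for an adjusted p under 0.05 (Ddx58), and open diamonds are the rhTM mean minus saline 3, all on slide 2; 31 filled points lie below 0.

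The rhTM hearts were not alike. For 28 of the 36 genes both rhTM 1 and rhTM 2 lay below every saline heart, against 26.2% of all genes. In 33 of the 36 genes rhTM 3 lay above both rhTM 1 and rhTM 2, against 40.5% of all genes, and its median distance above their mean was 0.67. The spread within the rhTM group, as a standard deviation, had a median of 0.42 for these genes and 0.21 for all genes. Within the saline group it was 0.33 and 0.38. The highest level of a gene was found in saline 1 for 21 genes and in rhTM 3 for 6, and the lowest in rhTM 2 for 18, in rhTM 1 for 12 and in rhTM 3 for 0. On slide 2 alone, rhTM 1 was below saline 3 for 30 genes and rhTM 2 for 29, whereas rhTM 3 was below saline 3 for 19 and above it for 17.

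When saline 3 and rhTM 3 were both left out, 23 of the 36 genes were called lower and 0 higher by limma, with a median difference of -0.88, while 26.3% of all genes were called lower and 26.9% higher. Without rhTM 3 alone, 7 genes were called lower and 0 higher by limma, against 3.48% and 2.6% of all genes. Without saline 3 alone, 7 genes were called lower, against 19.1% of all genes. In the fits that leave out saline 3, all saline hearts are on slide 1 and all rhTM hearts on slide 2, so slide and treatment cannot be told apart there.

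**Figure D3:**
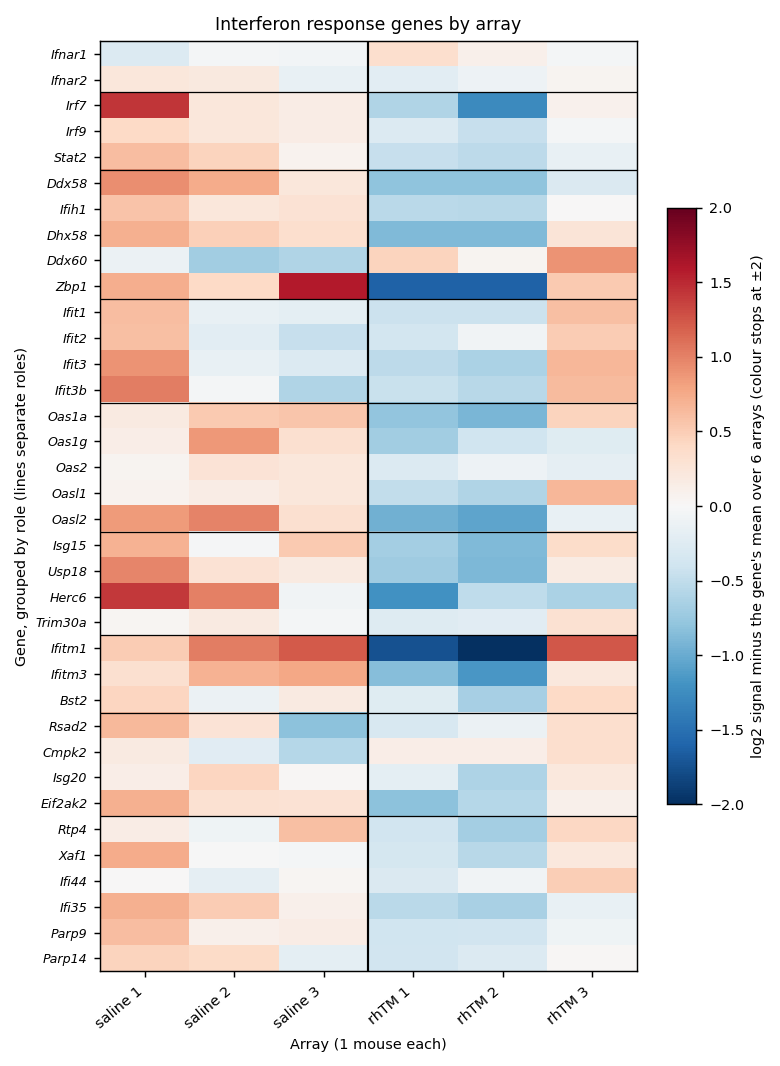
Level of each interferon response gene in each heart as log2 signal minus the gene's mean over the 6 arrays, with genes grouped by role and saline and rhTM separated by the vertical line; the colour stops at 2 in either direction. The rhTM 1 and rhTM 2 columns are lowest for 30 of the 36 genes, and rhTM 3 is lowest for none.

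Markers of neutrophils, white cells that enter inflamed tissue, varied between the same hearts. Relative to each gene's mean over the arrays, the median of the 8 neutrophil markers tested, of 10 listed, was -0.02, 1.14 and 3.31 in saline hearts 1, 2 and 3, against -3.08, -3.45 and 1.69 in rhTM hearts 1, 2 and 3. For the interferon response genes it was 0.59, 0.22 and 0.15 in the saline hearts against -0.45, -0.56 and 0.22 in the rhTM hearts. Both lists were thus lowest in rhTM 1 and rhTM 2, but saline 1 was the highest heart for the interferon genes and only the fourth for the neutrophil markers. Summed as a mean level, the neutrophil markers ranged from 1.17 to 3.82 in saline and from -2.28 to 2.59 in rhTM. S100a8, a calcium-binding protein abundant in neutrophils, was at 3.92, 5.26 and 8.42 in the saline hearts and 1.01, -0.79 and 7.17 in the rhTM hearts. Of the 8, 7 had a difference below 0 and limma called 0. At an unadjusted p under 0.05, 2 were lower and 0 higher, against 15.6% and 15.1% of all genes. In the replicate block Retnlg passed (adjusted p = 0.0466), where 1.65% of all genes were called lower. Without saline 3 and rhTM 3 limma called 7 of the 8 lower, against 26.3% of all genes. Slide and treatment cannot be told apart in that fit.

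Markers of some other cell types lay mostly higher with rhTM, while endothelial and fibroblast markers lay mostly lower. Of the 8 endothelial markers, 6 had a difference below 0, with a median of -0.15, or -0.02 in the slide block. Of the 8 fibroblast markers, 5 were below 0 and 3 above, with a median of -0.23, or -0.17 in the slide block. Limma called 0 of either list in the fit without a block. Of the 10 macrophage and monocyte markers, 8 had a difference above 0 and 2 below. Their median was 0.31, or 0.49 in the slide block. Limma called 1 of them higher and 0 lower, while 2.75% of all genes tested were called higher and 2.41% lower. Of the 4 lymphocyte and natural killer markers tested, of 10 listed, 3 were above 0. Their median was 0.68, or 0.09 in the slide block. Of 8 listed markers of plasmacytoid dendritic cells, the main interferon-producing blood cells, 4 were tested, namely Siglech, Tcf4, Cox6a2 and Pacsin1. All 4 had a difference above 0, with a median of 0.62, or 0.19 in the slide block. Cox6a2 was at 8.90, 8.84 and 8.88 in the saline hearts and 9.49, 9.34 and 9.15 in the rhTM hearts. Whether the signal of these 4 genes came from plasmacytoid dendritic cells was not tested. Siglech, a surface lectin of these cells, differed by 0.76 ± 0.29 (adjusted p = 0.138) and Pacsin1 by 1.00 ± 0.45 (adjusted p = 0.189). In the slide block these differences were 0.16 and -0.06. Siglech was at 6.80, 6.75 and 7.68 in the saline hearts and 7.97, 7.83 and 7.73 in the rhTM hearts. Pacsin1 was at 2.87, 2.70 and 4.38 in the saline hearts and 4.11, 4.39 and 4.44 in the rhTM hearts. Both thus split the hearts by slide. The other 4 were not tested. Ccr9 and Spib, with differences of -0.39 and -0.40, were well above background on 1 saline array each, and Klk1 and Ptcra on no array. Of the 8 cardiomyocyte markers, 7 had a difference above 0, with a median of 0.68. Pln, which encodes the calcium pump regulator phospholamban, rose by 1.35 ± 0.28 on the log2 scale (adjusted p = 0.0478, limma), and passed in the slide block (0.0286) and the replicate block (0.0429). The part of these cell types and of neutrophils in the interferon values was not tested.

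**Figure D4:**
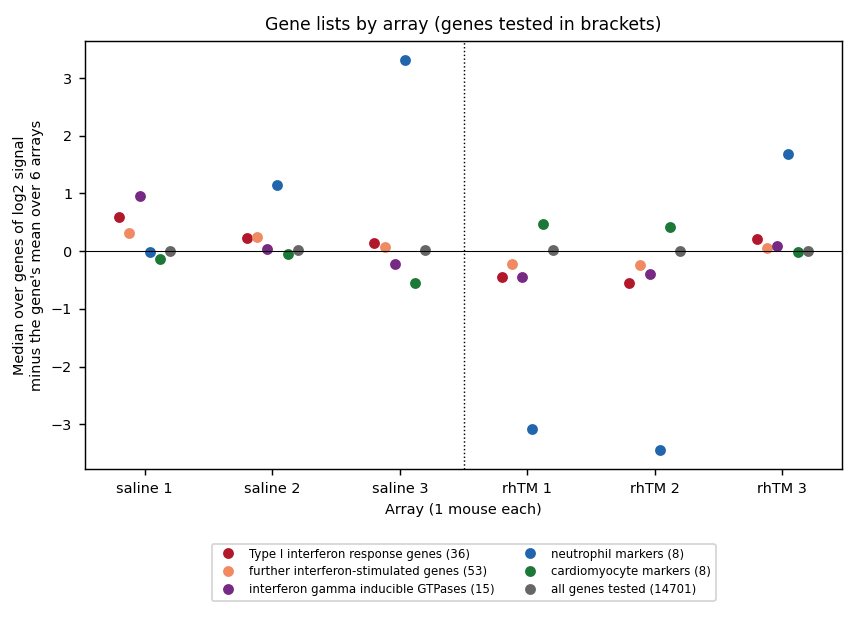
Median over the genes of each list of the log2 signal minus the gene's mean over 6 arrays, per array. The interferon response genes (36 tested) are lowest in rhTM 1 and rhTM 2 (-0.45 and -0.56) and at 0.22 in rhTM 3, and the neutrophil markers (8 tested) run from -3.45 in rhTM 2 to 3.31 in saline 3.

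Neither receptor chain passed the test. Ifnar1, the chain that recruits Tyk2, was at 1.97, 2.20 and 2.18 in saline hearts 1, 2 and 3 and at 2.57, 2.34 and 2.20 in rhTM hearts 1, 2 and 3. The rhTM hearts lay above the saline range, rhTM 3 only just, with a difference of 0.25 ± 0.19 (adjusted p = 0.384, limma). Other probes of Ifnar1 gave -0.0797, well above background on all 6 arrays, and 0.37, on 4 arrays. Ifnar2, the chain that recruits Jak1, was at 2.33, 2.30 and 1.96 in the saline hearts and 1.91, 2.02 and 2.17 in the rhTM hearts, so the groups overlapped, and the difference was -0.17 ± 0.19 (adjusted p = 0.573). Another probe of Ifnar2 gave -0.82, with levels of 0.38, 0.71 and 0.43 in the saline hearts and -0.48, -0.37 and -0.0803 in the rhTM hearts, so its groups were apart.

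The 3 transcription factors of the set lay lower in every rhTM heart, and none was called. Irf7, the factor that amplifies interferon production, was at 6.55, 5.34 and 5.27 in the saline hearts and 4.52, 3.86 and 5.21 in the rhTM hearts. The groups were separated only by the gap between saline 3 and rhTM 3, and the difference was -1.19 ± 0.47 (adjusted p = 0.149). Irf9, the DNA-binding part of the interferon-activated factor, was at 2.18, 2.00 and 1.93 in the saline hearts and 1.5, 1.31 and 1.74 in the rhTM hearts, a difference of -0.52 ± 0.20 (adjusted p = 0.138). Stat2, the partner of Irf9, was at 1.61, 1.44 and 1.07 in the saline hearts and 0.54, 0.48 and 0.85 in the rhTM hearts. Its difference was -0.75 ± 0.22 (adjusted p = 0.0914), while a second probe, well above background on 4 arrays, gave 0.82.

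Sensors of foreign nucleic acid held the gene that passed the test. Ddx58 encodes RIG-I, which recognises viral RNA ends in the cytoplasm. Its level was 1.96, 1.78 and 1.26 in saline hearts 1, 2 and 3 and 0.23, 0.24 and 0.75 in rhTM hearts 1, 2 and 3. Every rhTM heart was below every saline heart, with rhTM 3 and saline 3 nearest to each other. Ddx58 fell by 1.26 ± 0.27 on the log2 scale, which is 2.4-fold (adjusted p = 0.0485, limma). The slide block gave -0.86 (adjusted p = 0.109). In the fit blocked on replicate number the adjusted p was 0.0761, and 0 of the 36 genes were called by limma, while 1.65% of all genes were called lower and 2.43% higher. At an unadjusted p under 0.05 that fit had 17 of the 36 genes lower and 1 higher, against 17.7% and 18.4% of all genes. Of 17 other settings tried, 6 kept the call. Over all 17 the adjusted p ran from 0.000227 to 0.223 and the difference was below 0. With quantile normalization Ddx58 lost its call (adjusted p = 0.0512) and Oas1g gained one (-1.15, adjusted p = 0.0469, in a range of 0.00761 to 0.280 over its 17 settings). The Ddx58 call was lost without saline 1 (adjusted p = 0.168), saline 2 (0.135), rhTM 1 (0.210) or rhTM 2 (0.223), and kept without saline 3 (0.00689) or rhTM 3 (0.0471). Another probe of the gene, well above background on all 6 arrays, gave -0.39, and its groups overlapped. On that probe rhTM 3 at -0.65 lay above saline 2 (-0.68) and saline 3 (-0.96). A further probe, well above background on 5 arrays, gave -0.97 with its groups apart. The last probe, not above background, gave -0.21.

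The other RNA sensors differed in the same direction except Ddx60. Ifih1, which encodes MDA5 and binds long double-stranded RNA, was at 0.24, -0.11 and -0.05 in the saline hearts and -0.86, -0.89 and -0.32 in the rhTM hearts, with a difference of -0.72 ± 0.23 (adjusted p = 0.106). Dhx58, which encodes LGP2, a regulator of both sensors, was at -1.20, -1.43 and -1.57 in the saline hearts and -2.80, -2.79 and -1.65 in the rhTM hearts. Its groups were apart only narrowly, because rhTM 3 sat beside saline 3, and the difference was -1.01 ± 0.35 (adjusted p = 0.118). Zbp1, a sensor of Z-form nucleic acid that can trigger necroptosis, was at 0.75, 0.43 and 1.62 in the saline hearts and -1.59, -1.59 and 0.56 in the rhTM hearts. On this probe the groups overlapped through rhTM 3 alone, which exceeded saline 2, and the difference was -1.81 ± 0.64 (adjusted p = 0.125). Another probe of Zbp1, well above background on all 6 arrays, gave -1.82 with its groups apart. It was at -1.32, -1.16 and -1.44 in the saline hearts and -3.77, -3.42 and -2.19 in the rhTM hearts.

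Ddx60, a helicase related to these sensors, went the other way. It was at -3.39, -3.97 and -3.87 in the saline hearts and -2.83, -3.22 and -2.37 in the rhTM hearts. All 3 rhTM hearts were above all 3 saline hearts, with rhTM 3 the highest. The difference was 0.94 ± 0.29 (adjusted p = 0.0963), and 1.06 in the slide block. Another probe gave 0.52 with its groups overlapping, as rhTM 2 at -3.95 lay below saline 1 (-3.27) and saline 2 (-3.76). With normexp background correction the difference of Ddx60 on the probe used was 0.21 ± 0.29 (adjusted p = 0.696, limma). Its promoter above holds 2 matches of the response element letters.

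**Figure D5:**
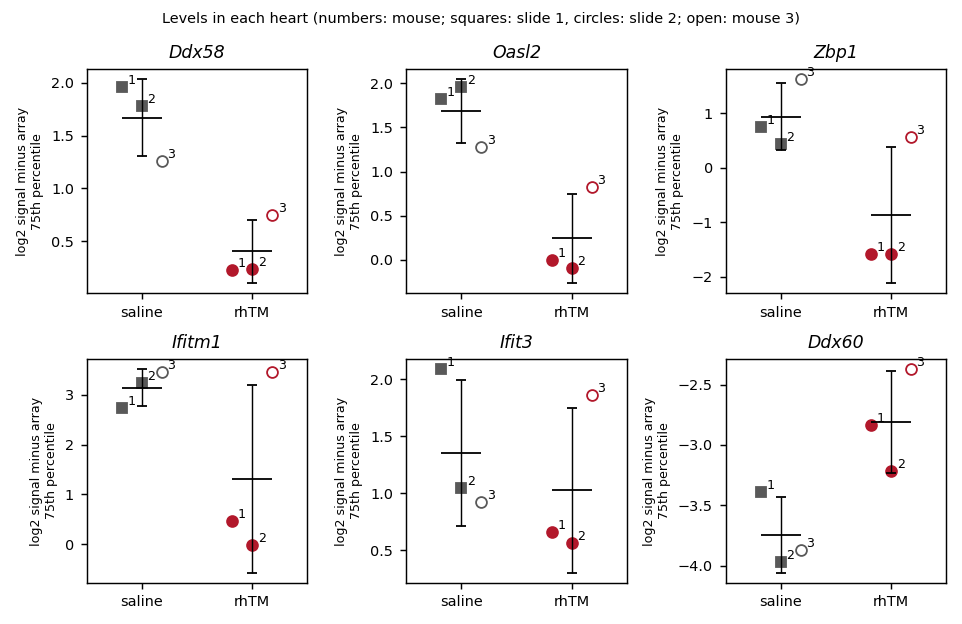
Levels of 6 genes in each heart as log2 signal minus the array's 75th percentile; numbers give the mouse, squares slide 1, circles slide 2 and open circles mouse 3 of each group, with the group mean and standard deviation as lines (n = 3). In Ddx58 and Oasl2 the groups are apart, in Zbp1, Ifitm1 and Ifit3 rhTM 3 lies among or beside the saline hearts, and in Ddx60 all rhTM hearts are higher.

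The IFIT genes, whose proteins bind viral RNA and block its translation, did not separate the groups. Ifit1 was at 0.14, -0.63 and -0.67 in the saline hearts and -0.90, -0.90 and 0.13 in the rhTM hearts, so that saline 1 and rhTM 3 were the high hearts of their groups (difference -0.17 ± 0.37, adjusted p = 0.778). Ifit3, which stabilises Ifit1 on its RNA targets, was at 2.08, 1.05 and 0.92 in the saline hearts and 0.66, 0.56 and 1.86 in the rhTM hearts, with the same 2 hearts high (difference -0.32 ± 0.46, adjusted p = 0.653). Ifit3b was at 0.73, -0.33 and -0.88 in the saline hearts and -0.73, -0.84 and 0.35 in the rhTM hearts, and its difference was -0.25 ± 0.50 (adjusted p = 0.754). Ifit2 was at -0.70, -1.52 and -1.77 in the saline hearts and -1.67, -1.38 and -0.80 in the rhTM hearts, a difference of 0.05 ± 0.36 (adjusted p = 0.941). In the slide block all 4 differences were above 0, from 0.11 to 0.48.

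Oligoadenylate synthetases make the messenger that activates RNase L against viral RNA, and the 2 Oasl genes encode related proteins. Oasl2 was at 1.82, 1.96 and 1.27 in the saline hearts and 0.00, -0.10 and 0.82 in the rhTM hearts. Its groups were apart, and the difference of -1.44 ± 0.32 (2.72-fold, adjusted p = 0.0535) missed the threshold narrowly. Oas1a was at 2.16, 2.49 and 2.54 in the saline hearts and 1.18, 1.05 and 2.43 in the rhTM hearts, where rhTM 3 lay among the saline hearts (difference -0.84 ± 0.39, adjusted p = 0.194). Oas1g was at -3.32, -2.59 and -3.13 in the saline hearts and -4.15, -3.86 and -3.70 in the rhTM hearts. Its 3 rhTM hearts lay close to each other below the saline hearts, and the difference was -0.89 ± 0.26 (adjusted p = 0.0861). With normexp background correction the difference of Oas1g was -0.50 ± 0.21 (adjusted p = 0.189, limma). Oas2 differed by -0.37 ± 0.17 with the groups apart, and Oasl1 by -0.29 ± 0.35 with the groups overlapping, since rhTM 3 at 1.06 was its highest heart. Another probe of Oasl1, well above background on all 6 arrays, gave -1.03. On that probe rhTM 3 at -1.20 lay between saline 2 (-0.75) and saline 3 (-1.73). Oas3 was not tested, because its probe was well above background on 2 of 3 saline arrays and on none of the rhTM arrays. With the rhTM arrays set to the lowest signal well above background, the level was 1.09-fold lower in rhTM. The saline mean in that value includes the array not well above background, so it is not a strict minimum.

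Among genes of the ubiquitin-like system, Isg15, a ubiquitin-like protein that is attached to other proteins, was at 3.87, 3.15 and 3.69 in the saline hearts and 2.49, 2.29 and 3.54 in the rhTM hearts. Its rhTM 3 level lay between the saline hearts, and the adjusted p was 0.205. Usp18, the protease that removes Isg15 and restrains the receptor, was at 0.96, 0.28 and 0.16 in the saline hearts and -0.73, -0.92 and 0.14 in the rhTM hearts, with a difference of -0.97 ± 0.36 (adjusted p = 0.132). Herc6, the mouse ligase of Isg15, was at -1.46, -1.86 and -2.95 in the saline hearts and -4.08, -3.38 and -3.51 in the rhTM hearts. Its groups were apart with saline 3 nearest to the rhTM hearts, and the difference was -1.57 ± 0.42 (adjusted p = 0.0757), or -0.71 in the slide block. With normexp background correction the difference of Herc6 was -0.80 ± 0.29 (adjusted p = 0.145, limma). Trim30a, a tripartite motif protein, differed by -0.12 ± 0.22 with overlapping groups.

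Among the membrane proteins that restrict virus entry or release, Ifitm1 had the largest difference of the 36 genes tested in the fit without a block, and the largest spread within rhTM. In the slide block Zbp1 (-2.49) exceeded it (-2.14). It was at 2.73, 3.24 and 3.45 in the saline hearts and 0.48, -0.01 and 3.46 in the rhTM hearts. The first 2 rhTM hearts were far below the saline hearts and rhTM 3 was the highest of all, so the difference of -1.83 ± 0.88 did not pass (adjusted p = 0.206). Ifitm3, which blocks viral fusion in endosomes, was at 5.44, 5.82 and 5.90 in the saline hearts and 4.28, 3.96 and 5.33 in the rhTM hearts. Here rhTM 3 stayed below the saline range, and the difference was -1.20 ± 0.38 (adjusted p = 0.102). Bst2, which tethers budding virus, was at 3.51, 2.97 and 3.25 in the saline hearts and 2.84, 2.41 and 3.48 in the rhTM hearts, with overlap and a difference of -0.33 ± 0.31.

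The enzymes that limit viral copying divided. Eif2ak2, the kinase PKR that halts translation on sensing double-stranded RNA, was at 0.16, -0.26 and -0.27 in the saline hearts and -1.38, -1.13 and -0.46 in the rhTM hearts, with the groups apart and a difference of -0.87 ± 0.29 (adjusted p = 0.112). Rsad2, the radical enzyme viperin, was at 0.70, 0.32 and -0.77 in the saline hearts and -0.27, -0.07 and 0.38 in the rhTM hearts. The saline hearts of slide 1 were high and saline 3 was the lowest of all 6, so the difference was -0.07 ± 0.41 over all hearts and 0.78 in the slide block (adjusted p = 0.166). Cmpk2, the nucleotide kinase gene beside Rsad2 in the genome, was at -0.63, -1.04 and -1.38 in the saline hearts and -0.67, -0.68 and -0.47 in the rhTM hearts. It differed by 0.41 ± 0.24 (adjusted p = 0.277). Isg20, an RNA exonuclease, differed by -0.39 ± 0.26 with overlap.

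Of the remaining 6 genes, Ifi35 and Parp9 had their groups apart. Ifi35 was at 4.38, 4.17 and 3.76 in the saline hearts and 3.12, 3.02 and 3.52 in the rhTM hearts, a difference of -0.88 ± 0.24 (adjusted p = 0.081), and another probe gave -0.97. Parp9, a member of the PARP family, was at 1.56, 1.05 and 1.10 in the saline hearts and 0.56, 0.57 and 0.87 in the rhTM hearts (difference -0.57 ± 0.22, adjusted p = 0.141). Parp14, Xaf1 and Rtp4 had differences of -0.43 to -0.47 and Ifi44 one of 0.09, all with overlapping groups. Over the whole set, 16 genes had 19 other probes, of which 14 gave a difference of the same sign as the probe used. The other 5 belonged to Ifnar1, Stat2, Rsad2 (0.13), Oas2 and Parp9, and those of Oas2 and Parp9 were well above background on 0 arrays.

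The differences were also set beside the promoter letters. The 15 tested genes with a match had a median difference of -0.72, and 14 of them were below 0. The 14 tested genes with an entry and no match had a median of -0.43, and 10 were below 0. The groups were apart and lower for 6 and 5 genes, while they were so for 18.7% of all genes tested. Ddx58 was the only call among both, while 2.41% of all genes were called lower.

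Other genes of the pathway were followed from the receptor back to the ligands. All 10 receptor signalling partners tested had a difference below 0, with a median of -0.94, and Stat3 was called. Over all genes tested, 49.2% were below 0 and 2.41% were called lower. Stat3, the transcription factor of interleukin-6 signalling that type I interferon also activates, was at 4.86, 4.67 and 4.69 in the saline hearts and 3.09, 2.86 and 3.44 in the rhTM hearts. Every rhTM heart was more than 1 log2 unit below every saline heart. Stat3 fell by 1.61 ± 0.21 on the log2 scale, 3.05-fold (adjusted p = 0.0248, limma), and it also passed in the slide block (adjusted p = 0.0409) and in the replicate block (adjusted p = 0.0391). Jak1 differed by -0.55 ± 0.19 (adjusted p = 0.117), Tyk2 by -1.03 ± 0.30 (adjusted p = 0.0857) and Socs3, a feedback inhibitor, by -2.68 ± 0.75 (adjusted p = 0.0826, and 0.0492 in the replicate block). Ptpn2, a phosphatase that acts on Jak1, differed by -0.99 ± 0.24 (adjusted p = 0.0649, and 0.0462 in the slide block).

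Of 20 tested genes of the pathway that induces interferon, 13 had a difference below 0 (median -0.29), against 49.2% of all genes. Myd88 and Sting1 were called lower, while 2.41% of all genes were called lower and 2.75% higher. Myd88, an adaptor of Toll-like receptors, fell by 1.54 ± 0.29 (adjusted p = 0.043), and did not pass in the slide block (0.0934) or the replicate block (0.0563). Sting1, the adaptor of cytosolic DNA sensing, was at 1.89, 2.30 and 1.83 in the saline hearts and 0.29, 0.32 and 0.99 in the rhTM hearts. It fell by 1.47 ± 0.27 on the log2 scale (adjusted p = 0.0401). It did not pass in the slide block (adjusted p = 0.0853) or in the replicate block (0.0563). Tlr4, the LPS receptor, differed by 0.53 (adjusted p = 0.483) and Irf3 by -0.64 ± 0.19 (adjusted p = 0.0908).

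The interferon ligand genes gave little signal. Of 18 listed, 16 had a probe and 6 were tested, of which 1 was below 0. Limma called 0 of the 6, while 2.41% of all genes were called lower and 2.75% higher. At an unadjusted p under 0.05, 0 were lower and 2 higher, against 15.6% and 15.1% of all genes. For Ifnb1, which encodes interferon beta, no array had a signal well above background. Ifna11 was at -6.07, -6.41 and -1.41 in the saline hearts and -1.09, -1.32 and -1.32 in the rhTM hearts, which splits the hearts by slide and not by treatment, and its difference in the slide block was 0.16.

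Interferon-stimulated genes outside the set were examined in the same way. Of 53 further interferon-stimulated genes tested, 40 were below 0 with a median of -0.35, or -0.14 in the slide block. Limma called 1 of the 53 lower and 1 higher, while 2.41% of all genes were called lower and 2.75% higher. Lgals3bp, a secreted glycoprotein, was called lower at -1.76 ± 0.35 (adjusted p = 0.0448), with levels of 5.29, 4.94 and 4.22 in the saline hearts and 2.89, 2.74 and 3.55 in the rhTM hearts. Trim12c, a tripartite motif protein, was called higher at 1.35 ± 0.27 (adjusted p = 0.0447), with levels of -1.92, -2.26 and -1.33 in the saline hearts and -0.44, -0.56 and -0.45 in the rhTM hearts. Neither passed in the slide block (adjusted p = 0.107 and 0.0709) or the replicate block (0.0706 and 0.053). In the replicate block Ifitm6 and Slfn4 passed (adjusted p = 0.0454 and 0.0429), at differences of -3.08 ± 1.2 and -3.30 ± 1.17 and adjusted p of 0.146 and 0.123 without the block. The replicate block called 1.65% of all genes lower. Of the 15 interferon gamma inducible GTPases tested, 12 were below 0 with a median of -0.36, and 0 were called by limma. In the slide block 8 of the 15 were below 0, with a median of -0.18. At an unadjusted p under 0.05 without a block, 1 was lower and 0 higher, against 15.6% and 15.1% of all genes.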

How the data were processed

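Scanner files of 6 arrays (1 mouse each, named in the labels) were used. They hold spot intensity values made by Agilent Feature Extraction, version 10.7.3.1 and grid build mm9 per the file headers and version 9.1 per the submitters' processing notes. The deposited processed signal is background-corrected and not normalised between arrays. The authors' deposited log2 value table, whose baseline per probe differs between slides (SD 0.825 between saline 1 and 3), served only as an alternative.

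Here the log2 processed signal minus each array's 75th percentile was taken. Spots of 1 probe were averaged, and outlier flags removed 368 of 56605 probes. Of 56237 probes kept, 32789 matched a RefSeq symbol through their accession and 23448 did not. A gene is its brightest probe over all arrays, tested where 1 group or both had it well above background in all 3 hearts. The comparison used limma 3.58.1 (R 4.3.3), and its code was checked on simulated data. The exact permutation test cannot go below 0.1 with 3 against 3 arrays and was not used. Where a gene was well above background on no array of 1 group only, a bound was computed for that group from the lowest signal well above background. The mean of the other group was used as measured. The members, gene lists and named genes were chosen with earlier results of these data known, and named genes follow the roles of the members.

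Same-numbered arrays deviated together across genes (0.319, 0.235 and 0.372), above 0.1 for each pair, so the numbers were used as a replicate block in an alternative fit. Different numbers gave -0.387 to 0.314, and the labels name no shared litter or day. The values of 1 signalling gene are not reported here.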

Additional observations from a re-analysis of the deposited data

How the results depend on the processing

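Against 1 gene called lower, the interferon response genes gave 0 with the slide as a block, with the replicate block, with normexp background correction (on median in place of the planned mean signals, chosen after seeing the data), with arrays centred on the median, with no filter on dim probes and with the mean over probes; 14 with the deposited table, 29 with array weights, 23 without saline 3 and rhTM 3, and 0 to 7 leaving out 1 heart. At an unadjusted p under 0.05 those 6 settings with 0 gave 4, 17, 16, 12, 13 and 14 lower and 2, 1, 0, 1, 1 and 0 higher. Over all genes the slide block gave 14.5% lower and 16.3% higher, and the replicate block 17.7% and 18.4%. These shares were not computed for the rest, so their counts have no background to be read against. None was called higher by limma in any setting. Quantile normalization also called 1, Oas1g in place of Ddx58. The array weights were 0.0915 for saline 3 against 1.87 and 1.24 for saline 1 and 2, so that fit sets mostly slide 1 saline against slide 2 rhTM. The median difference was -0.90 with array weights and -0.88 without saline 3 and rhTM 3.

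Over all genes, the counts lower and higher were 212 and 200 with normexp, 19 and 132 with no dim filter, 2314 and 2205 with the deposited table, 4581 and 4663 with array weights and 3873 and 3948 without saline 3 and rhTM 3. Leaving out 1 heart gave 0 to 2808 lower and 0 to 3007 higher. The slide block gave 287 and 563, the replicate block 242 and 357, and centring 268 and 483.

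Signs turned for Ifnar2 (0.0715), Ifit1 (0.11), Ifit3 (0.11), Ifit3b (0.47) and Rsad2 (0.78) with the slide block, for Ifit2 with normexp (-0.0103), quantile normalization (-0.0240), the deposited table (-0.0250), array weights (-0.36) and saline 3 and rhTM 3 left out (-0.42), for Rsad2 with centring (0.0087), the probe mean (0.0279) and the deposited table (0.19), for Stat2 with the probe mean (0.0366), and for Ifi44 with the deposited table (-0.28), array weights (-0.0217) and saline 3 and rhTM 3 left out (-0.0930). Leaving out 1 heart gave Ifit1 -0.52 to 0.0928, Ifit2 -0.20 to 0.36, Ifit3 -0.74 to 0.0431, Ifit3b -0.63 to 0.20, Rsad2 -0.50 to 0.24 and Ifi44 -0.13 to 0.26. The causes were not tested.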
